A study of Homo sapiens with 8 samples.

Results

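The genes described here are 10 transcripts that the ERK pathway is known to induce: the phosphatases DUSP4, DUSP5 and DUSP6, the inhibitors SPRY2, SPRY4, SPRED1 and SPRED2, the pleckstrin-homology protein PHLDA1, and the transcription factors ETV4 and ETV5. They were chosen by name, with earlier results of these data known. Their rows are those of the deposited count table whose Ensembl identifiers map to these symbols. All 10 were found among the 60617 genes of the table, and all 10 were among the 17693 genes tested after the filter on low counts. The cells were MCF-10A, an established non-tumorigenic human breast epithelial line, in versions labelled Empty and NeuT. Each version was left untreated or given 1 µM JG-98, a small-molecule inhibitor of Hsp70 chaperones, for 12 h, with 2 libraries in each of the 4 groups. What NeuT cells carry, and from which promoter, is not written out in the labels, nor is it said whether a line is a clone or a pool. The name NeuT is widely used for an activated rat form of the receptor ERBB2. The groups all shared a growth medium with 20 ng/mL of epidermal growth factor, 5% horse serum, insulin, hydrocortisone and cholera toxin, so the Empty cells were also exposed to a ligand of the pathway. The series compared the sensitivity of transformed cells to the drug.

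ERBB2 and the receptor for epidermal growth factor signal through RAS, RAF and MEK to the ERK kinases. Active ERK induces a set of transcripts whose products act back on the pathway: dual-specificity phosphatases remove the activating phosphates of ERK, and Sprouty and Spred proteins restrain it at the level of RAS and RAF. ETV4 and ETV5 are ETS-family factors, of which ERK raises both the transcript and the activity. The transcripts are commonly read as a record of pathway output, since they rise and fall with ERK activity within hours. No phosphorylated ERK was measured here.

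Total counts per library ran from 37341458, in JG-98-treated Empty replicate 1, to 56861971, and the other 7 libraries each held at least 55050996. The 8 mammary epithelial markers examined were present in every library, with summed levels of 16490 to 18530 CPM (counts per 1000000 of the TMM-scaled library). The 4 leukocyte markers summed to at most 0.093 CPM, the 5 fibroblast markers to at most 6.54 CPM and the 3 endothelial markers to at most 15.1 CPM, and the 2 adipocyte markers to at most 0.259 CPM, with ADIPOQ at 0. The labels do not say whether replicates came from separate cultures, so p-values measure the spread between these libraries only. In bulk RNA, a change in every cell and a change in the share of cells that express a gene cannot be told apart.

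All 10 genes were higher in NeuT than in Empty cells, both without and with JG-98. The differences between untreated lines ranged from a log2 value of 0.28 for SPRY2 to 3.45 for DUSP6, with a median of 0.88 against -0.02 over all genes tested. Each of the 10 passed the edgeR quasi-likelihood test at an adjusted p-value under 0.05, with the highest adjusted p-value at 0.00981. Over all genes, 21.2% were called higher in this comparison, since the lines differed in 7423 of 17693 genes. With JG-98 in both lines, again 10 of 10 were called higher, against 21.7% of all genes, and the median log2 difference was 0.84. In 9 of the 10 genes all 4 NeuT libraries lay above all 4 Empty libraries, an arrangement found in 23.3% of all genes tested. SPRY2 was the exception. The balance of calls over all genes depended on scaling, with 3748 of 7423 calls higher in NeuT under TMM and 3087 of 7592 under total counts. All 10 genes were called higher under both.

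**Figure D1:**
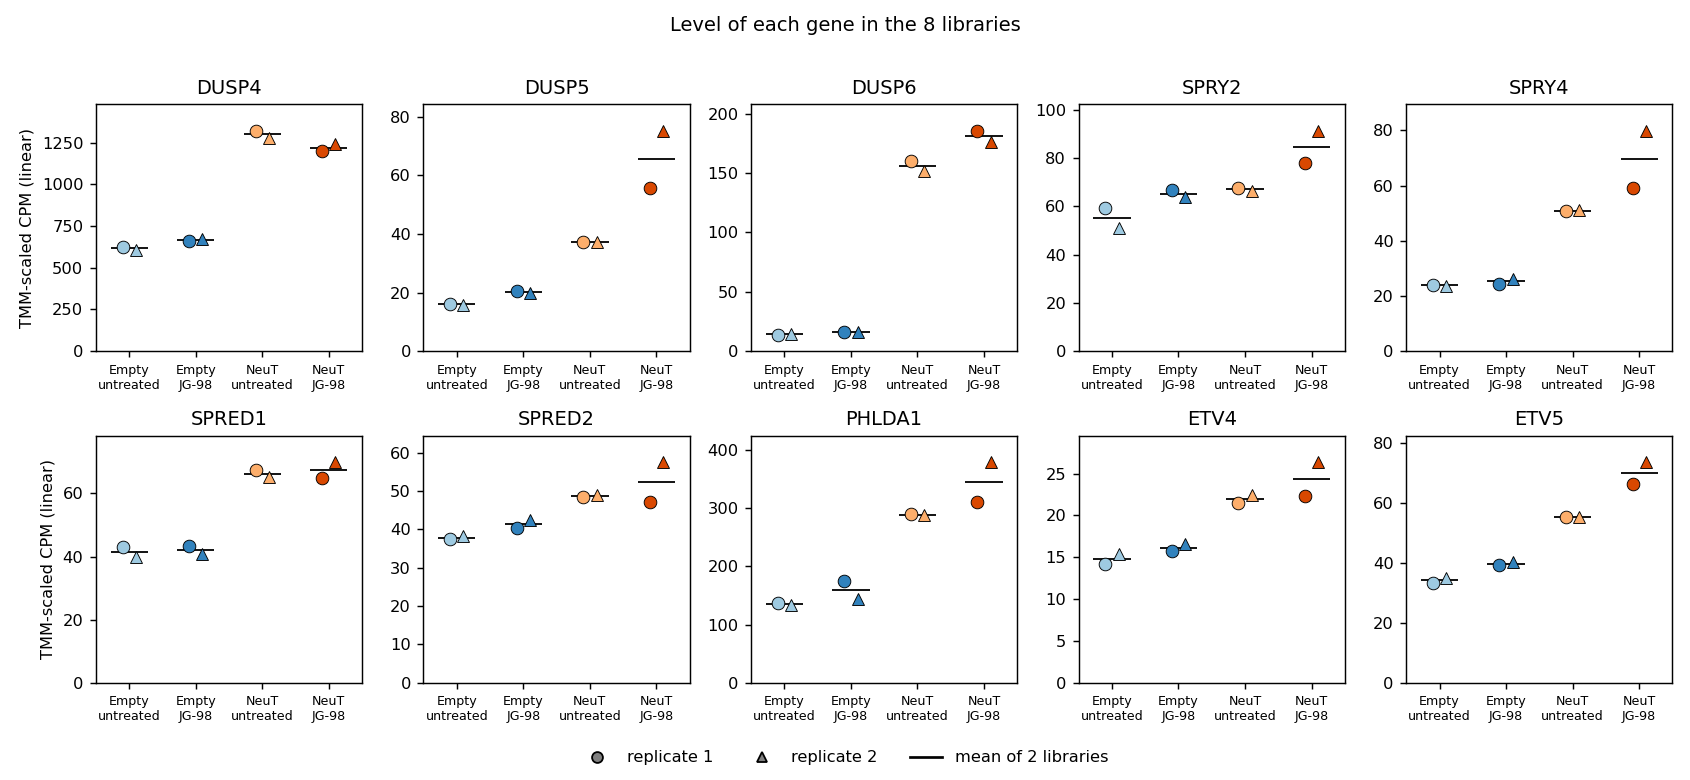
TMM-scaled CPM (linear axes from 0) of each of the 10 genes in the 8 libraries, by line and treatment; circles are replicate 1, triangles replicate 2, and lines the mean of 2 libraries. All 4 NeuT libraries lie above all 4 Empty libraries for every gene except SPRY2, and in JG-98-treated NeuT the triangle is the higher one in 9 of 10 genes.

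DUSP6 encodes the cytoplasmic phosphatase specific for ERK and showed the largest difference of the 10. Its level was 14.04 and 14.44 CPM in the untreated Empty libraries, 16.22 and 15.79 CPM in the treated Empty libraries, 160.2 and 152.1 CPM in untreated NeuT, and 185.5 and 176.1 CPM in treated NeuT. The lowest NeuT library was thus far above the highest Empty library, and the libraries within each group lay close together. The group means of 14.2 ± 0.29 CPM (SD, n = 2) and 156.2 ± 5.7 CPM (SD, n = 2) gave an 11.0-fold difference between untreated lines (log2 difference 3.45, SE 0.066; edgeR adjusted p-value 1.51e-15). Only 109 of the 17693 genes tested had a larger rise. With JG-98 the log2 difference was 3.50 (SE 0.067). DUSP6 (ENSG00000139318) spans 89347235 to 89352501 on the minus strand of chromosome 12 in the count table. An opposite-strand gene, ENSG00000274021, overlaps 28.6% of the exon bases of DUSP6. ENSG00000274021 had at most 27 counts in any library where DUSP6 had at least 618. How reads in the shared stretch were assigned is not given in the sources used here. The low count therefore does not show whether DUSP6 reads were lost there.

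DUSP4, a nuclear phosphatase of ERK and related kinases, was the most abundant of the genes. It stood at 625.9 and 608.0 CPM in untreated Empty, 661.7 and 671.8 CPM in treated Empty, 1320 and 1277 CPM in untreated NeuT, and 1200 and 1239 CPM in treated NeuT. The lines were well apart, and in NeuT the treated libraries both lay below the untreated ones, while in Empty they lay above. The difference between untreated lines was 2.1-fold (log2 1.07, SE 0.051; edgeR adjusted p-value 3.54e-11), and with JG-98 it was 1.83-fold (log2 0.87, SE 0.050). DUSP4 (ENSG00000120875) lies on chromosome 8 from 29333064 to 29350684, on the minus strand, and its exons overlap no other gene of the table.

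DUSP5, a nuclear phosphatase specific for ERK, combined a difference between the lines with the largest response to the drug. Its level was 16.17 and 15.81 CPM in untreated Empty and 20.42 and 19.81 CPM in treated Empty, then 37.14 and 37.26 CPM in untreated NeuT and 55.75 and 75.20 CPM in treated NeuT. The 4 groups did not overlap, and the treated NeuT libraries stood widest apart. The untreated lines differed 2.33-fold (log2 1.22, SE 0.11; edgeR adjusted p-value 9.15e-07), and the treated lines 3.26-fold (log2 1.70, SE 0.11; edgeR adjusted p-value 2.44e-08). DUSP5 (ENSG00000138166) lies on the plus strand of chromosome 10, from 110497907 to 110511533.

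The Sprouty genes, whose products are induced inhibitors of receptor signalling to RAS, differed from each other. SPRY4 was at 23.96 and 23.77 CPM in untreated Empty, 24.49 and 26.15 CPM in treated Empty, 50.75 and 51.20 CPM in untreated NeuT, and 59.20 and 79.83 CPM in treated NeuT. It was 2.14-fold higher in untreated NeuT (log2 1.09, SE 0.11; edgeR adjusted p-value 3.89e-06) and 2.74-fold higher in treated NeuT than in treated Empty. SPRY2 was at 59.27 and 51.13 CPM in untreated Empty, 66.82 and 63.78 CPM in treated Empty, 67.82 and 66.38 CPM in untreated NeuT, and 77.98 and 91.29 CPM in treated NeuT. Its highest Empty library was above its lowest NeuT library, and its untreated difference of 1.22-fold (log2 0.28, SE 0.081; edgeR adjusted p-value 0.00981) was the smallest of the 10. That call was lost without untreated Empty replicate 2 (log2 0.18, edgeR adjusted p-value 0.186) and without untreated NeuT replicate 1 (log2 0.28, edgeR adjusted p-value 0.0608). SPRY2 (ENSG00000136158) lies at 80335976 to 80341126 on chromosome 13 and SPRY4 (ENSG00000187678) at 142310427 to 142326455 on chromosome 5, both on the minus strand.

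The Spred genes encode membrane-bound relatives of Sprouty, and SPRED1 is known to bring the RAS-inactivating protein neurofibromin to the membrane. SPRED1 was at 43.09 and 39.77 CPM in untreated Empty, 43.20 and 40.94 CPM in treated Empty, 67.47 and 65.10 CPM in untreated NeuT, and 64.78 and 69.84 CPM in treated NeuT. The lines were apart, and within each line the treated and untreated libraries overlapped. The difference between untreated lines was 1.6-fold (log2 0.68, SE 0.068; edgeR adjusted p-value 4.03e-07). SPRED2 ran from 37.41 to 38.18 CPM in untreated Empty, 40.32 to 42.47 CPM in treated Empty, 48.39 to 49.09 CPM in untreated NeuT and 47.28 to 57.50 CPM in treated NeuT. It was 1.29-fold higher in untreated NeuT (log2 0.37, SE 0.081; edgeR adjusted p-value 0.00144). SPRED1 (ENSG00000166068) lies on the plus strand of chromosome 15 at 38252836 to 38357249, and SPRED2 (ENSG00000198369) on the minus strand of chromosome 2 at 65310851 to 65432637.

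PHLDA1, an early-response gene whose protein holds a pleckstrin-homology-like domain, was at 137.7 and 132.9 CPM in untreated Empty, 174.8 and 143.2 CPM in treated Empty, 289.5 and 288.1 CPM in untreated NeuT, and 311.0 and 378.7 CPM in treated NeuT. The untreated pairs were close together and the treated pairs were spread. The untreated lines differed 2.13-fold (log2 1.09, SE 0.10; edgeR adjusted p-value 8.73e-06). PHLDA1 (ENSG00000139289) lies on the minus strand of chromosome 12 at 76025447 to 76033932. It shares 16.5% of its exon bases with PHLDA1-AS1 and PHLDA1-DT on the other strand, which had at most 2 counts in a library.

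ETV4 and ETV5, the ETS factors that bind GGAA-containing sites, differed between the lines by less than DUSP6. ETV5 was at 33.38 and 35.08 CPM in untreated Empty, 39.29 and 40.29 CPM in treated Empty, 55.43 and 55.21 CPM in untreated NeuT, and 66.17 and 73.54 CPM in treated NeuT. Its 4 groups did not overlap, and the untreated difference was 1.62-fold (log2 0.69, SE 0.069; edgeR adjusted p-value 3.48e-07). ETV4 was at 14.16 and 15.37 CPM in untreated Empty, 15.70 and 16.54 CPM in treated Empty, 21.46 and 22.40 CPM in untreated NeuT, and 22.28 and 26.33 CPM in treated NeuT. Its untreated difference was 1.49-fold (log2 0.57, SE 0.094; edgeR adjusted p-value 0.000102). ETV4 (ENSG00000175832) lies on chromosome 17 at 43527844 to 43579620 and shares 1.93% of its exon bases with the opposite-strand gene DHX8, which had 2540 to 4671 counts in a library where ETV4 had 598 to 1423. ETV5 (ENSG00000244405) lies on chromosome 3 at 186046314 to 186110318 and shares 2.84% with DGKG on the same strand, which had 201 to 546 counts where ETV5 had 1497 to 3974. Both are on the minus strand.

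**Figure D2:**
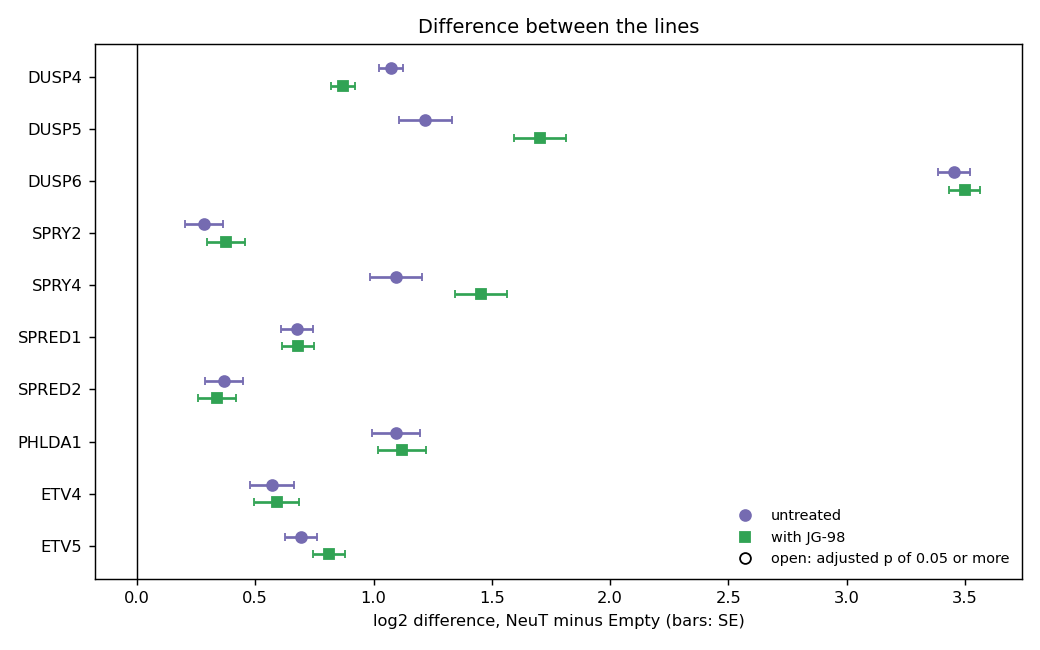
Log2 difference of NeuT minus Empty for each gene, untreated (circles) and with JG-98 (squares); bars are standard errors, and filled symbols have an edgeR adjusted p-value under 0.05. All symbols are filled and to the right of 0, from 0.28 for untreated SPRY2 to 3.50 for DUSP6 with JG-98.

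The order of the genes by level differed between the lines. Per kilobase of exon, untreated Empty cells held 84.8 CPM of DUSP4, 17.2 of SPRY2, 16.8 of PHLDA1, 6.87 of SPRED2, 6.31 of DUSP5, 5.93 of ETV5, 5.35 of SPRED1, 4.20 of ETV4, 3.69 of DUSP6 and 3.64 of SPRY4, on the scale of CPM per kilobase. In this order the libraries of SPRY2 and PHLDA1 overlapped, as did those of DUSP6 and SPRY4. In untreated NeuT cells DUSP4 stood at 178.6 CPM per kilobase, followed by DUSP6 at 40.5, PHLDA1 at 35.8, SPRY2 at 20.9, DUSP5 at 14.7, ETV5 at 9.58, SPRED2 at 8.85, SPRED1 at 8.55, SPRY4 at 7.77 and ETV4 at 6.24. No neighbours overlapped between libraries in the NeuT order. DUSP6 was above 56.9% of the genes tested in untreated Empty and above 93.5% in untreated NeuT by this measure. DUSP4 was above 97.2% and 98.8%. These levels divide by all exon bases, including the 28.6% of DUSP6 and 16.5% of PHLDA1 shared with opposite-strand genes. How reads there were assigned is not given, so the place of DUSP6 and PHLDA1 in the order is uncertain.

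Promoter windows from RefSeq (GRCh38.p14), 250 bases before to 50 bases after a start site, were given for 6 of the 10 genes, with 9 windows in all. There was no entry for DUSP4, DUSP5, ETV4 or ETV5. The ETS core AGGAAG, on either strand, occurred in 7 of the 9 windows and in 33.6% of all 35116 windows. By gene it occurred in 4 of the 6, and SPRY4 and PHLDA1 had none. SPRY2 and SPRED2 each gave more than 1 window, so the windows are not independent, and no share by gene was computed over all genes. The longer ETS motif CCGGAAG occurred in 0 of 9 and in 10.3% of all windows, and the AP-1 motif TGANTCA in 1 of 9, at the inner start site of SPRED2, and in 7.71% of all. The cyclic AMP response element TGACGTCA (1.85% of all windows) and the CArG box of the serum response element (1.29%) occurred in 0 of 9. Both ETS motifs end in the same letters, the AP-1 and cyclic AMP motifs begin and end alike, and none of these 4 contains another. A match is not a site of binding. The 250 bases upstream follow for the 3 genes whose window begins at the outer end of the gene in the count table, which include the genes with the largest and the smallest difference between the lines. Capitals mark AGGAAG or its reverse complement CTTCCT, and each sequence runs 5′ to 3′ along the gene as the table gives it. For DUSP6 and SPRED1 the bases just after the start site were found in a GENCODE 29 transcript of the gene, and for this start site of SPRY2 they were not. Nor were they found for the SPRY2 start site at 80340108 or the inner SPRED2 start site at 65366778, which held the AP-1 match. All of these unmatched windows held AGGAAG.
DUSP6, chr12:89352502-89352751, minus strand: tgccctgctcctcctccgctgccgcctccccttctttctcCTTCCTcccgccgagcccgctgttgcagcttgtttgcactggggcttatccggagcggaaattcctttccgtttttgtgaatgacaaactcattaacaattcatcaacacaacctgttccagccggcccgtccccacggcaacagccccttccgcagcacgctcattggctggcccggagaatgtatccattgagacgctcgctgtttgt
SPRED1, chr15:38252586-38252835, plus strand: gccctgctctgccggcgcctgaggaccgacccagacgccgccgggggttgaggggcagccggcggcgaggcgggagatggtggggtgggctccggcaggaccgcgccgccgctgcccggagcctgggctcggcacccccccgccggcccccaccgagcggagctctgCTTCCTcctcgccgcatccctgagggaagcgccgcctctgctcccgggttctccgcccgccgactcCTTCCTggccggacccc
SPRY2, chr13:80341127-80341376, minus strand: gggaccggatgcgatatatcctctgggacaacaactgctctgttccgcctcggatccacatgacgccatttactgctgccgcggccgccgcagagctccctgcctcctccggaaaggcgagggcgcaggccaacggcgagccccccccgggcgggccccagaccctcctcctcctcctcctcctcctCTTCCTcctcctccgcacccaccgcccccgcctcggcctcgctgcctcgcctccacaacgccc
The core appears 1 time upstream of DUSP6, 2 times upstream of SPRED1 and 1 time upstream of SPRY2. The G and C content of these stretches is 57.2% for DUSP6, 78.4% for SPRED1 and 70.4% for SPRY2.

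In Empty cells, no gene of the 10 was called with JG-98, and all 10 had a positive log2 difference. These ran from 0.02 (SE 0.069) for SPRED1 to 0.33 (SE 0.12) for DUSP5, with a median of 0.15 against 0.00 over all genes, and the lowest edgeR adjusted p-value was 0.256, for ETV5. Over all genes, 0.339% were called. DESeq2 and limma-voom also called 0 of the 10. At an unadjusted edgeR p-value under 0.05, 6 of the 10 were higher (DUSP4, DUSP5, DUSP6, SPRY2, PHLDA1 and ETV5), against 4.93% of all genes. In 9 of the 10, all but SPRED1, both treated libraries lay above both untreated ones, which held for 20.9% of all genes. With 2 libraries against 2, exact permutation for 1 gene gives a two-sided p-value of 0.333 at the smallest. All 8 libraries share 1 estimate of the spread, and without either one of the treated NeuT libraries 3 genes were called in Empty cells (DUSP5, SPRY2 and ETV5). The calls over all genes then went from 60 of 17693 to 417 of 18667 without replicate 1 and 404 of 18702 without replicate 2.

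In NeuT cells, JG-98 raised 4 of the 10 genes. DUSP5 rose 1.76-fold (log2 0.82, SE 0.11; edgeR adjusted p-value 0.000777), from 37.2 ± 0.091 CPM (SD, n = 2) to 65.5 ± 14 CPM (SD, n = 2). SPRY4 rose 1.36-fold (log2 0.45, SE 0.11; edgeR adjusted p-value 0.0414), ETV5 1.26-fold (log2 0.34, SE 0.067; edgeR adjusted p-value 0.00994) and SPRY2 1.26-fold (log2 0.33, SE 0.080; edgeR adjusted p-value 0.0302). Over all genes, 2.01% were called higher with JG-98 in NeuT. The call of DUSP5 was kept in all 17 alternative settings, with log2 differences of 0.58 to 1.01, while ETV5 was called in 13, SPRY2 in 11 and SPRY4 in 9 of them.

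The other 6 genes were not called in NeuT. DUSP6 differed by 0.21 on the log2 scale (SE 0.057; edgeR adjusted p-value 0.0569), PHLDA1 0.26 (SE 0.10; edgeR adjusted p-value 0.245), ETV4 0.15 (SE 0.092; edgeR adjusted p-value 0.471), SPRED2 0.10 (SE 0.080; edgeR adjusted p-value 0.586) and SPRED1 0.02 (SE 0.067; edgeR adjusted p-value 0.920). DUSP6 was called in 5 of the 17 alternative settings, PHLDA1 in 2, SPRED2 in 1 and the other 3 in none. DUSP4 was the one gene with a negative value, -0.09 (SE 0.050; edgeR adjusted p-value 0.403), and both its treated libraries lay below both untreated ones. In 6 genes (the 4 called, DUSP6 and PHLDA1) both treated libraries lay above both untreated ones, against 21.9% of all genes. The median over the 10 was 0.23, against 0.00 over all genes.

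**Figure D3:**
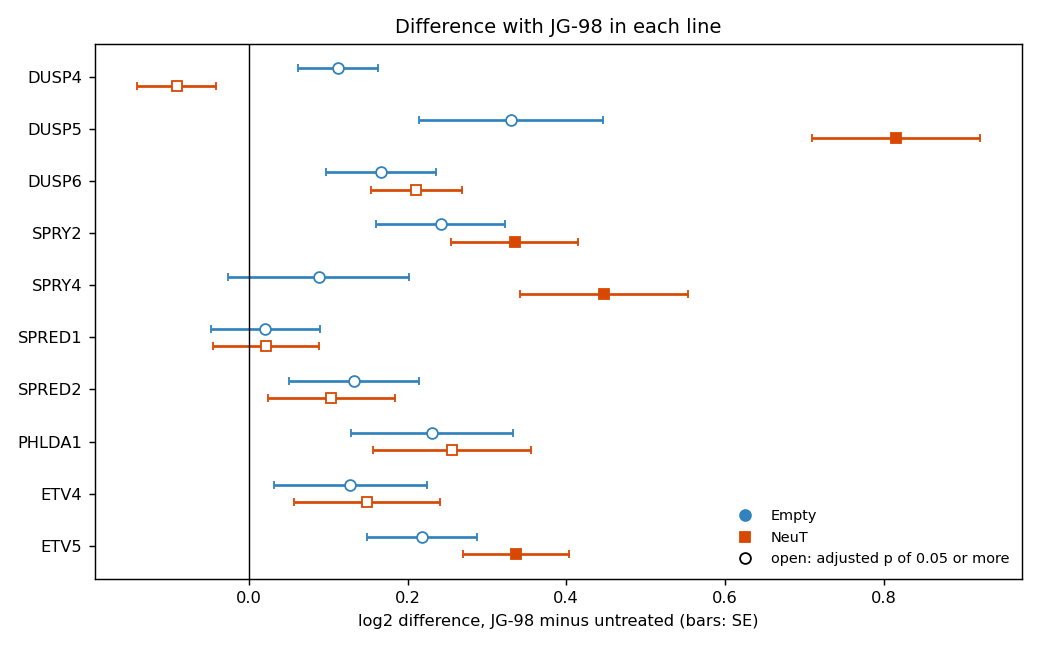
Log2 difference of JG-98 minus untreated for each gene in Empty (circles) and NeuT (squares); bars are standard errors, and filled symbols have an edgeR adjusted p-value under 0.05. The filled symbols are DUSP5 at 0.82, SPRY4 at 0.45, ETV5 at 0.34 and SPRY2 at 0.33, all in NeuT.

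The treated NeuT libraries differed from each other in most of the genes. Replicate 2 was above replicate 1 in 9 of the 10, with a median log2 difference of 0.23 and the largest, 0.43, in DUSP5. DUSP6 was the exception. Over all genes tested, replicate 2 was above replicate 1 in 50.9%, and the median size of the difference, whichever way it went, was 0.16 on the log2 scale. In the other groups 4 or 5 of the 10 genes were higher in replicate 2, with medians of -0.02 to -0.01. Without treated NeuT replicate 2, the log2 differences with JG-98 were 0.21 for SPRY4 (edgeR adjusted p-value 0.177), 0.21 for SPRY2 (edgeR adjusted p-value 0.175) and 0.25 for ETV5 (edgeR adjusted p-value 0.0574), none of them called, while DUSP5 was at 0.58 and still called. Without replicate 1 they were 0.65 for SPRY4, 0.44 for SPRY2, 0.41 for ETV5 and 1.01 for DUSP5. Of the genes not called with all libraries, DUSP6 was at 0.24 without replicate 2 (edgeR adjusted p-value 0.031, called) and at 0.17 without replicate 1 (edgeR adjusted p-value 0.0665). PHLDA1 was at 0.10 without replicate 2 and at 0.39 without replicate 1 (edgeR adjusted p-value 0.0255, called). SPRED2 was at -0.05 without replicate 2 and at 0.24 without replicate 1 (edgeR adjusted p-value 0.0268, called), and ETV4 at 0.01 and 0.26, called in neither. Over all genes, the calls were 533 of 17693 with all libraries, 2133 of 18667 without replicate 1 and 367 of 18702 without replicate 2. Leaving out either untreated NeuT library lowered the number called over all genes as well as among the 10.

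**Figure D4:**
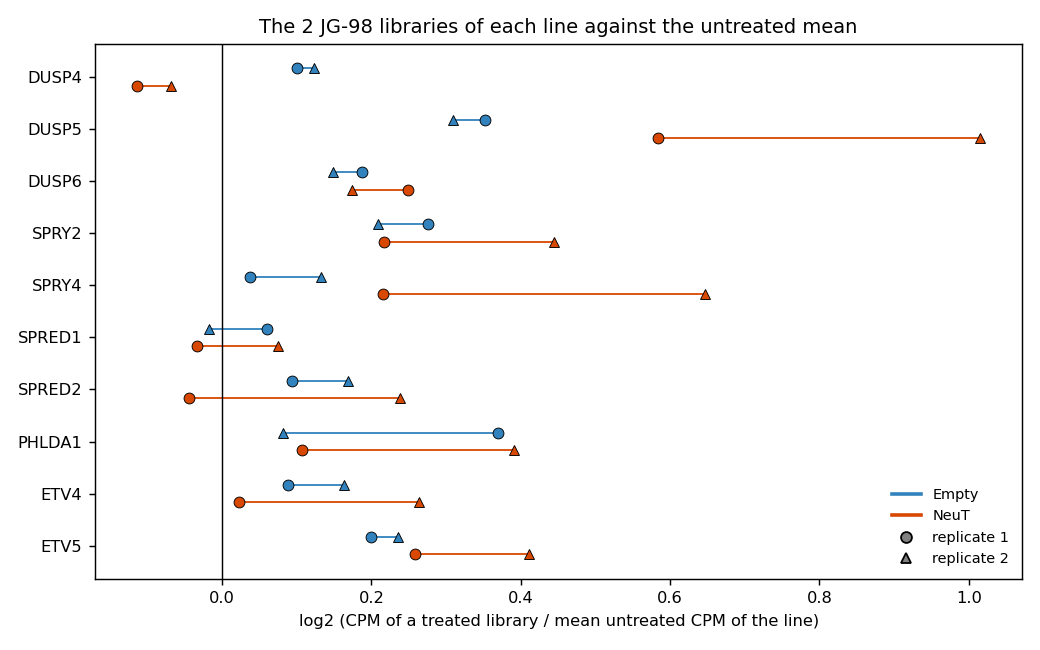
Log2 ratio of each JG-98-treated library to the mean untreated CPM of its line, for each gene; circles are replicate 1 and triangles replicate 2, joined by a line. In NeuT the triangle lies to the right of the circle for all genes but DUSP6, and DUSP4 in NeuT is the one gene with both symbols left of 0.

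No gene of the 10 was called for a difference between the lines in the response to JG-98. Over all genes, the interaction of line and drug called 0.00565%, which is 1 gene. DESeq2 and limma-voom also called 0 of the 10. At an unadjusted edgeR p-value under 0.05 there were 3 of the 10, against 7.79% of all genes: DUSP5 with an interaction of 0.49 (SE 0.16; edgeR adjusted p-value 0.509), SPRY4 with 0.36 (SE 0.16; edgeR adjusted p-value 0.607) and DUSP4 with -0.20 (SE 0.071; edgeR adjusted p-value 0.530). The 4 calls in NeuT and 0 in Empty are therefore not shown to differ. Without treated NeuT replicate 1, the interactions of DUSP5 (0.68, edgeR adjusted p-value 0.000228) and SPRY4 (0.55, edgeR adjusted p-value 0.00112) were called, and the calls over all genes went from 1 of 17693 to 777 of 18667. Without replicate 2 they were 0.24 for DUSP5 and 0.11 for SPRY4, not called, with 15 of 18702 genes called.

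The authors' deposited table for NeuT gave adjusted p-values under 0.05 to the same 4 genes: 0.000864 for DUSP5, 0.0119 for ETV5, 0.0349 for SPRY4 and 0.0457 for SPRY2. It compares the same treated and untreated NeuT groups, so it is not independent of the edgeR calls. Its log2 fold changes in the authors' deposited table were 0.80 for DUSP5, 0.33 for ETV5, 0.43 for SPRY4 and 0.33 for SPRY2, and DUSP6 had 0.21 with an adjusted p-value of 0.0838. In the authors' deposited table for Empty, none of the 10 was under 0.05, and the lowest adjusted p-value was 0.246, for ETV5. The share of all genes under 0.05 in the authors' tables was not computed here.

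Other transcripts commonly used as ERK outputs were mostly higher in NeuT as well. Of 20 such genes, 13 were called higher and 2 lower in untreated NeuT, with a median log2 difference of 0.62 against -0.02 over all genes, where 21.2% were called higher and 20.8% lower. AREG, a ligand of the receptor for epidermal growth factor, stood at 922.9 ± 5.8 CPM (SD, n = 2) in NeuT against 213.5 ± 7.9 CPM (SD, n = 2) in the Empty line (log2 2.11, SE 0.065; edgeR adjusted p-value 3.61e-13). FOS, an AP-1 subunit, was higher by 1.74 (SE 0.097) and DUSP1, a nuclear phosphatase of several MAP kinases, by 1.64 (SE 0.058), with edgeR adjusted p-values up to 4.35e-09. The 2 called lower were UPP1 at -0.39 (SE 0.061) and EMP1 at -0.38 (SE 0.049), with edgeR adjusted p-values up to 6.08e-05. The 5 not called were EGR1 at -0.54 (SE 0.32), FOSL1 at 0.04 (SE 0.076), IER3, DUSP2 and KLF10. With JG-98, 2 of the 20 were called in Empty, against 0.339% of all genes. They were UPP1 (uridine phosphorylase) at 0.37 (SE 0.061) and ERRFI1 (a feedback inhibitor of the receptor for epidermal growth factor) at 0.32 (SE 0.053), both with an edgeR adjusted p-value of 0.0115. In NeuT 5 of the 20 were called, all higher, against 2.01% of all genes. UPP1 was at 0.72 (SE 0.062), the receptor ligand EREG at 0.65 (SE 0.094), ERRFI1 at 0.49 (SE 0.053), DUSP1 at 0.30 (SE 0.056) and the ephrin receptor EPHA2 at 0.30 (SE 0.071), with edgeR adjusted p-values up to 0.0316. None of the 20 was called in the interaction of line and drug, where 6 had an unadjusted p-value under 0.05, against 7.79% of all genes.

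Other negative regulators and relatives of the 10 genes were split in direction. Of 20 listed, SPRY3 and PHLDA2 had at most 5 counts in a library and were not tested, and of the 18 tested 7 were called higher and 5 lower in untreated NeuT, against 21.2% and 20.8% of all genes (median log2 difference 0.13). The Spred relative SPRED3 was at 1.17 ± 0.091 CPM (SD, n = 2) in Empty and 8.08 ± 0.28 CPM (SD, n = 2) in NeuT (log2 2.79, SE 0.17; edgeR adjusted p-value 1.24e-09). The Sprouty relative SPRY1 was at 0.81 ± 0.097 CPM (SD, n = 2) and 3.89 ± 0.85 CPM (SD, n = 2), which differed by 2.26 on the log2 scale (SE 0.27; edgeR adjusted p-value 2.93e-06). DUSP8, a phosphatase of the stress-activated kinases, was called lower (edgeR adjusted p-value 0.00694) on 10 and 29 counts in Empty against 2 and 3 counts in NeuT. DUSP10, which also acts on the stress-activated kinases, rose with JG-98 in both lines. In Empty the log2 difference was 0.73 (SE 0.12; edgeR adjusted p-value 0.0112), and in NeuT it was 0.72 (SE 0.10; edgeR adjusted p-value 0.000807). It was the one gene of the 18 called with the drug in either line, against 0.339% of all genes called in Empty and 2.01% called higher in NeuT.

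The kinases and adaptors upstream went both ways. Of the 20 core cascade genes listed, 8 were called higher and 4 lower in untreated NeuT, against 21.2% and 20.8% of all genes, with a median log2 difference of 0.02. The named ones were the RAS relative RRAS at 1.03 (SE 0.061), the adaptor SHC1 at 0.70 (SE 0.053) and the MEK1 gene MAP2K1 at 0.69 (SE 0.062), with edgeR adjusted p-values up to 1.04e-07. With JG-98, 0 of the 20 were called in Empty, where 2 had an unadjusted edgeR p-value under 0.05, against 9.83% of all genes. In NeuT the RAF activator subunit SHOC2 was the one gene of the 20 called, at 0.32 (SE 0.062; edgeR adjusted p-value 0.00913), against 2.01% of all genes called higher. Of 12 other ETS factors, 6 were called higher and 2 lower in untreated NeuT, against 21.2% and 20.8% of all genes (median log2 difference 0.14). ETV1, the third member of the ETV4 and ETV5 subfamily, was higher by 1.92 (SE 0.16) and ELK3 by 1.00 (SE 0.067), while ETS2 was lower with a log2 difference of -0.80 (SE 0.072), with edgeR adjusted p-values up to 1.46e-07. None of the 12 was called with JG-98 by edgeR, where 1 in Empty and 6 in NeuT had an unadjusted p-value under 0.05, against 9.83% and 16% of all genes.

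**Figure D5:**
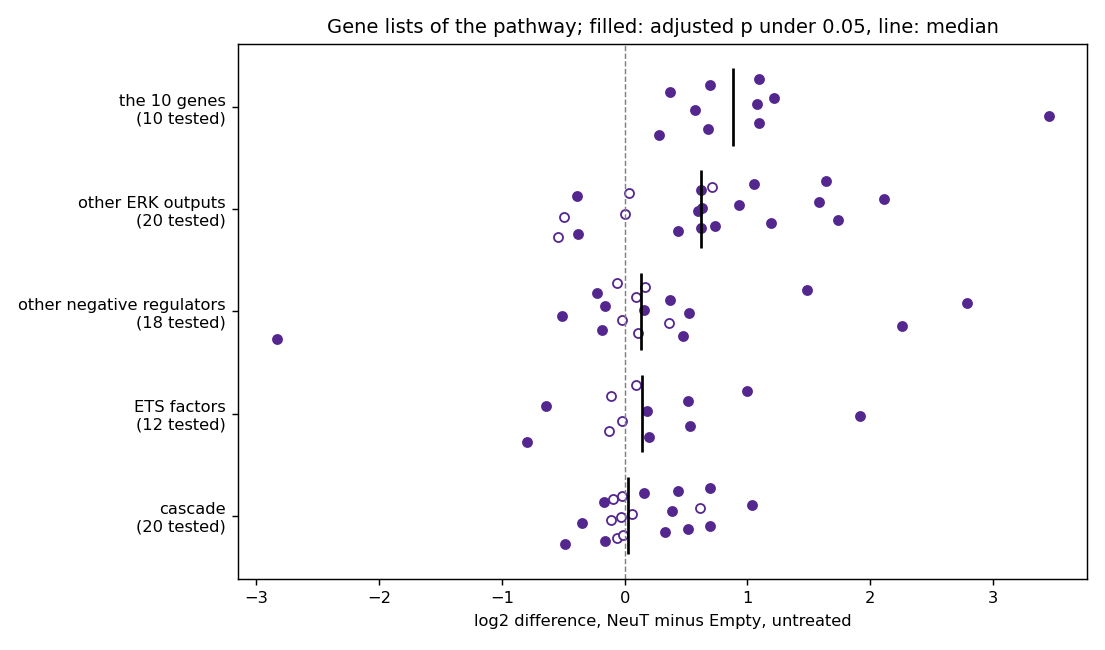
Log2 difference of untreated NeuT minus Empty for the 10 genes and for 4 lists of pathway genes, 1 point per gene tested, filled where the edgeR adjusted p-value was under 0.05; the black line is the median of the list. The medians are 0.88 for the 10 genes, 0.62 for other ERK outputs, 0.13 for other negative regulators, 0.14 for ETS factors and 0.02 for the cascade. The genes and lists were chosen with earlier results of these data known.

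The genes most like DUSP6 over the 8 libraries, by Pearson correlation of log2 CPM, were PSTPIP2, an adaptor of the actin cytoskeleton (r = 0.999), PI3, the protease inhibitor elafin (r = 0.999), TIMP1, an inhibitor of metalloproteases (r = 0.999), CTSB, the lysosomal protease cathepsin B (r = 0.999), and AKR1B1, aldose reductase (r = 0.998). The 8 points fall into the 2 lines, and 261 of the 12737 genes compared had an r over 0.99 with DUSP6. PI3 was at 33.8 CPM in untreated Empty and 237.5 CPM in untreated NeuT, TIMP1 at 142.3 and 482.7 CPM.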

How the data were processed

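Poly(A)-selected RNA of 8 MCF-10A libraries was sequenced, and samples were grouped by their titles. The authors deposited raw counts per gene, laid out as featureCounts writes them, per the file headers, with exon coordinates and lengths. The submitters' processing notes name Trim Galore 0.5.0, FastQC 0.11.7, HISAT2 2.1.0, SAMtools 1.9, featureCounts 1.6.3, limma and the build hg38 (GRCh38); strand setting and treatment of multiply mapped reads are not given in the sources used here. The authors also deposited, for each line, their own log2 fold changes and p-values, raw and adjusted, per the file headers. Symbols were taken from a gene name table holding 60261 of 60617 identifiers. Gene coordinates are 1-based and those of the count table.

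Counts were analysed with edgeR 4.0.16 (R 4.3.3). The filterByExpr filter (minimum count 10, total 15) left 17693 genes. A robust quasi-likelihood fit of all 8 libraries had 1 coefficient for each group and TMM scaling, with Benjamini-Hochberg adjustment over all genes tested. The alternatives were other size factors, other filters, DESeq2 1.42.0, limma-voom 3.58.1, no robust estimation, a replicate block, the 4 libraries compared, and each library left out. The 10 genes, the 4 gene lists and the markers were chosen with earlier results of these data known. All 10 genes are named. From each list the text names the 3 largest differences among genes called between untreated lines and up to 4 called with JG-98, the largest first. EPHA2, and the ERK outputs called lower or not called between untreated lines, were added after their values were seen. The likeness to DUSP6 was taken over genes averaging 50 counts or more. The protocol names no molecular identifiers, so reads are not independent molecules. The number of per-sample columns matched to no sample was 0.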

Additional observations from a re-analysis of the deposited data

How the results depend on the processing

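The differences between the lines kept their direction in all 17 alternative settings, for all 10 genes, and 10 of 10 were called in every setting without and with JG-98, except that SPRY2 was lost in the untreated comparison in 2 settings. Over all genes, between 5461 of 18629 and 8690 of 16860 were called in the untreated comparison and between 5951 of 18641 and 7571 of 17693 with JG-98. With JG-98 in Empty, the number called went from 0 to 2 without a filter on low counts (DUSP5 and PHLDA1) and ranged from 0 to 3 when each library was left out. In NeuT, it went from 4 to 1 in a fit of only the 4 libraries compared, to 6 without a filter and to 5 by DESeq2 and by limma-voom, and ranged from 1 to 6 when each library was left out. For the interaction it went from 0 to 1 without a filter (DUSP5) and ranged from 0 to 2 when each library was left out, with 2 without treated NeuT replicate 1. The cause was not tested. Changes of sign with a library left out were seen in SPRED1 in Empty (-0.037 to 0.080), SPRED1 in NeuT (-0.041 to 0.073) and SPRED2 in NeuT (-0.052 to 0.236), none of which was called in the main comparison. Of 160 interaction values over the alternatives, 21 had the other sign. Over all genes, the calls with JG-98 in Empty were 60, against 282 without a filter, 151 by DESeq2, 205 with 4 libraries and 9 to 417 with a library left out. In NeuT they were 533, against 1000 without a filter, 185 with 4 libraries and 132 to 2133 with a library left out. For the interaction they were 1, against 138 without a filter, 26 by DESeq2, 3 without robust estimation, 2 with total counts and up to 777 with a library left out. DESeq2 called 722 and limma-voom 504 of all 17693 genes with JG-98 in NeuT. With a library left out, the lone sample of its group is assumed to vary like the other groups.

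Whether replicate numbers pair the libraries was checked. Correlations of replicate differences between groups ran from -0.10 to 0.24 over 9548 genes. The highest, 0.244, was between the treated groups of the lines and lay above the threshold set, 0.1. The next highest was 0.062, between the Empty groups. The numbers were not taken to pair all the libraries, and the main fit leaves out any tie between the treated groups. With the replicate block, 10, 10, 0, 5 and 0 genes were called in the line comparisons (untreated, JG-98), with JG-98 in Empty and in NeuT, and in the interaction, against 7497, 7451, 66, 593 and 1 of all 17693 genes. The added call was DUSP6 in NeuT (edgeR adjusted p-value 0.0492). Each of the 10 genes had at least 598 counts in every library.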
